A study of Homo sapiens with 4 samples.

Results

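The zinc-dependent histone deacetylases (HDACs) were followed through a profile of H3K27ac, an acetylated form of histone H3 that marks active promoters and enhancers. The 10 genes HDAC1 to HDAC9 and HDAC11 were taken by symbol from the authors' deposited table, which gave 74 of its 91107 distinct regions, and 10 of its 17301 gene symbols. Each region belongs to the gene to which the authors assigned it. The study used A375, an established human melanoma cell line, in chromatin immunoprecipitation and sequencing with 4 libraries. Per the labels, 2 libraries came from plates with isopropanol as the vehicle and 2 from plates with 1 mM octanoate, which is a fatty acid of medium chain length. All plates were treated for 48 hours, and no genetic change is labelled in either group. The libraries come from 1 cell line, and nothing in the labels says whether they came from separate cultures.

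Zinc-dependent HDACs remove acetyl groups from lysines of histones and other proteins, and so oppose the acetyltransferases that write marks such as H3K27ac. Class I enzymes are mostly nuclear and widely expressed, and most work within corepressor complexes. Class IIa enzymes shuttle between nucleus and cytoplasm under the control of phosphorylation, bind MEF2 transcription factors and have little deacetylase activity of their own. The class IIb enzyme HDAC6 acts largely in the cytoplasm on tubulin, and HDAC11 forms class IV. Short-chain fatty acids such as butyrate are known inhibitors of some of these enzymes.

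The deposited table holds 1 comparison. For each region it gives a mean level in units normalized by the authors, a log2 fold change, the standard error (SE) of that fold change, and p-values. It gives no value per library, so the level in each of the 4 libraries cannot be shown, no spread between replicates can be computed and depth per library is unknown. The numerator of the fold change is not named, and values are therefore called positive or negative and not gains or losses under octanoate. As a check of the cell type, 4 of 7 melanocyte-lineage markers had a region at their start, and the authors' deposited table gives mean levels of 774 for SOX10, 269 for PMEL, 98.4 for MITF and 55.2 for S100B. MLANA, TYR and DCT, which make or mark pigment, had no region at distance 0 in the authors' deposited table. Of 3 keratinocyte and 3 leukocyte markers 0 had one, and of 2 hepatocyte markers only APOA1 did, at a mean level of 9.80 in the authors' deposited table. Away from starts the markers did not separate the lineages: the strongest region assigned to PTPRC, a leukocyte gene with 23 regions, had a mean level of 408 in the authors' deposited table, that of MITF 370 and that of KRT5, a keratinocyte gene, 55.8.

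The authors' distances lead back to a single start for each gene. A region with distance 0 overlaps that start, and all 10 genes had exactly 1 such region. The RefSeq promoter table (GRCh38.p14) held 19 start sites for 9 of the 10 genes, with HDAC5 not matched. For each of the 9 genes the nearest RefSeq site lay 2 (HDAC1) to 710 (HDAC7) bases from the start the authors used. All 19 sites lay inside a region of the authors' deposited table, beside 71.5% of the 18426 RefSeq sites of all genes named in that table. Of the 19 sites, 11 fell in regions at distance 0 and 8 in regions that the table places away from a start or gives to another gene. The 250 bases before a start are shown for 3 starts of HDAC9, which carry very different sequence, for 2 starts of HDAC4, and for HDAC1, HDAC2 and HDAC11 as promoters with and without GC boxes. Capitals mark 4 motifs, each searched on both strands. They are the GC box (GGGCGG), the CCAAT box (its 5 letters as named), the TATA box (TATAAA) and the core bound by ETS factors (CCGGAAG).
HDAC9, the start nearest the one used in the deposited table, chr7:18509020-18509269, plus strand: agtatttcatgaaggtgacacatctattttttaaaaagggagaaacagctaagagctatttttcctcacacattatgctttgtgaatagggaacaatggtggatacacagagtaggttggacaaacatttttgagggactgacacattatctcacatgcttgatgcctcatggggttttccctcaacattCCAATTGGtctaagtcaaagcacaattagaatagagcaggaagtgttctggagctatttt
HDAC9, a start upstream of it, chr7:18495460-18495709, plus strand: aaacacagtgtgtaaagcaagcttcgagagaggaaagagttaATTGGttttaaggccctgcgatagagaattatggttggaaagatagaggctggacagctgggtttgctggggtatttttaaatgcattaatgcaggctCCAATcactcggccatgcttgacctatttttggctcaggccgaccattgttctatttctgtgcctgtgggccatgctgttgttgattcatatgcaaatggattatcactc
HDAC9, the most distal start, chr7:18086575-18086824, plus strand: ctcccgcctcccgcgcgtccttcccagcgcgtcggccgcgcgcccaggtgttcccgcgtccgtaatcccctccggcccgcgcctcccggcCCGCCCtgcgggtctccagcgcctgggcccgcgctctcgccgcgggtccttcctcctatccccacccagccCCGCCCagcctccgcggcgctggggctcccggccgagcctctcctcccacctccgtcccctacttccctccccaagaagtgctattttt
HDAC4, the start nearest the one used in the deposited table, chr2:239401650-239401899, minus strand: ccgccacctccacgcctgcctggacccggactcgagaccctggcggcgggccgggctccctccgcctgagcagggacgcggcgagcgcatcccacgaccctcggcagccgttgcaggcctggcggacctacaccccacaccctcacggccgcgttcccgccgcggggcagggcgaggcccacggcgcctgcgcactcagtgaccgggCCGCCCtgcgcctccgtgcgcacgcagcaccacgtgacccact
HDAC4, a start within the gene, chr2:239273628-239273877, minus strand: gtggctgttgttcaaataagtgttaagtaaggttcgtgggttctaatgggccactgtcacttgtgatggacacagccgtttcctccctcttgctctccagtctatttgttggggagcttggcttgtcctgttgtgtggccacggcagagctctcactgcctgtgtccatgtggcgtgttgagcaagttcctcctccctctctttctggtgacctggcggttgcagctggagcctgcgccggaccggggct
HDAC1, chr1:32291833-32292082, plus strand: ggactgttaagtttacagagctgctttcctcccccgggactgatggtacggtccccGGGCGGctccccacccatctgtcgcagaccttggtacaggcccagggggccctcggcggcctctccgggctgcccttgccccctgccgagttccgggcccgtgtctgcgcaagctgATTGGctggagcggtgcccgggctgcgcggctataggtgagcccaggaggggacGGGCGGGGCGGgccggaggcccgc
HDAC2, chr6:113971149-113971398, minus strand: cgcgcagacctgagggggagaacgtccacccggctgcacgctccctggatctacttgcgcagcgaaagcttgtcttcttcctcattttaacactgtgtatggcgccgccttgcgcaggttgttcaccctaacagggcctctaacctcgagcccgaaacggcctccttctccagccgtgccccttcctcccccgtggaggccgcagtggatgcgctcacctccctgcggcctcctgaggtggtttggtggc
HDAC11, chr3:13480056-13480305, plus strand: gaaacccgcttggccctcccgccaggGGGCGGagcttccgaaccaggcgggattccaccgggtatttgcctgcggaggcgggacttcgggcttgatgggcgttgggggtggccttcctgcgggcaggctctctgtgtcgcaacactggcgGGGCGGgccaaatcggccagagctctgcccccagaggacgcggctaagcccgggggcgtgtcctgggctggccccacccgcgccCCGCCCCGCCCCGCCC

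The 3 HDAC9 windows differ in composition. The window before the start nearest the one used in the authors' deposited table had 38.4% G and C and 0 CpG dinucleotides, and its only motif match was an overlapping pair of CCAAT in both orientations. The window before the most distal start had 75.2% G and C, 32 CpG dinucleotides and 2 GC boxes. The upstream start lay between them, with 44.0% G and C and 4 CpG dinucleotides. Over the 35114 RefSeq windows of the same length with a full sequence, the median was 58% G and C and 11 CpG dinucleotides. HDAC4 showed the same kind of contrast, with 33 CpG dinucleotides before the first printed start and 8 before the printed start within the gene. HDAC11 had 5 GC boxes and HDAC1 had 3, some of them overlapping, while HDAC2 had 0 matches to any of the 4 motifs. Of the 19 windows, several of which overlap, 8 held a GC box, 6 CCAAT, 1 the ETS core and 0 TATAAA. The shares of all RefSeq windows were 42.6%, 32.0%, 8.52% and 10.7% in that order. A match describes letters in a window and not a bound site.

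The start regions of all 10 genes had a positive log2 fold change, between 0.13 and 0.57 in the authors' deposited table, and none passed the authors' test. Their median was 0.39 in the authors' deposited table, and that of all genes' starts was 0.35 over the 9996 for which an adjusted p was computed, 98.1% of them positive. Of the 74 member regions 0 reached an adjusted p under 0.05 in the authors' deposited table, where DESeq2 is the tool named in the submitters' processing notes. Over the 36436 regions with a computed adjusted p, the background was 1.67% called, 1.65% with a positive fold change, and at distance 0 it was 0.86%. An adjusted p was computed for 40 of the 74 member regions, so only these 40 could be called. At an unadjusted p-value under 0.05 there was 1 member region, the start of HDAC9, which is among the 40. The background was 18.4% over all regions with a computed adjusted p and 19.2% at starts.

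**Figure D1:**
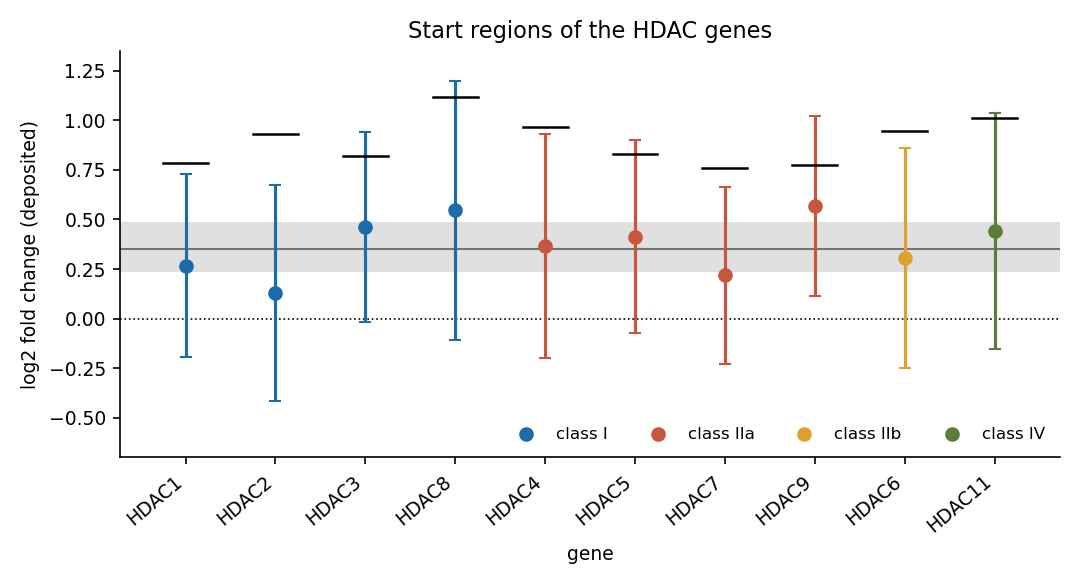
Log2 fold change of the region at distance 0 of each HDAC gene in the authors' deposited table; bars are the fold change plus and minus 1.96 SE, the grey line and band are the median and quartiles of all genes' starts, and the short black line is the fold change at which that region would have been called. All 10 points lie between 0.13 and 0.57, below their black lines, and every bar covers the grey line.

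Class I enzymes were taken first. HDAC1 and HDAC2 are closely related catalytic subunits shared by the Sin3, NuRD and CoREST complexes. The HDAC1 start region (chr1:32290485-32293836) had a mean level of 114 and a log2 fold change of 0.27 (SE 0.23) in the authors' deposited table. The HDAC2 start region (chr6:113968603-113972117) had a mean level of 85.7 and the smallest fold change of the 10 starts, 0.13 (SE 0.28), in the authors' deposited table. HDAC3 is the catalytic subunit of the nuclear receptor corepressor complexes. Its start region (chr5:141634577-141638323) had a mean level of 104 and a fold change of 0.46 (SE 0.24, adjusted p = 0.288) in the authors' deposited table. That region is also listed at distance 0 for RELL2, the gene on the other side of the same promoter, so its value cannot be credited to HDAC3 alone. HDAC8, which acts outside these complexes and deacetylates the cohesin subunit SMC3, had the lowest mean level of the 10 starts, 48.1 (chrX:72571646-72573550), with a fold change of 0.55 (SE 0.33) in the authors' deposited table. HDAC1 and HDAC2 lay below the median of all starts and HDAC3 and HDAC8 above it, with every 95% interval (1.96 SE) covering both that median and 0.

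Among class IIa genes the start of HDAC9 stood highest. HDAC9 is a repressor of MEF2 targets with short and long isoforms. Its start region (chr7:18507171-18512292) had a mean level of 118 and a log2 fold change of 0.57 (SE 0.23) in the authors' deposited table, a ratio of 1.48. The unadjusted p-value was 0.0143 and the adjusted one 0.176 in the authors' deposited table, and the 95% interval of 0.11 to 1.02 left out 0 but covered the median of all starts. HDAC5, a regulator of stress-responsive gene programmes in muscle and heart, had a mean level of 81.0 (chr17:44122034-44124766) and a fold change of 0.41 (SE 0.25) in the authors' deposited table. HDAC4, a regulator of chondrocyte and muscle genes, had a mean level of 60.0 (chr2:239398966-239402250) and a fold change of 0.37 (SE 0.29) in the authors' deposited table. HDAC7, known for roles in endothelial cells and thymocytes, had the highest mean level of the 10 starts, 257 (chr12:47816109-47823176), and a fold change of 0.22 (SE 0.23) in the authors' deposited table. The highest fold change and the highest mean level of the class thus belonged to different genes.

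The class IIb gene HDAC6 had a start region (chrX:48800529-48803602) with a mean level of 69.9 and a log2 fold change of 0.31 (SE 0.28) in the authors' deposited table. Its 3 RefSeq start sites all lay inside that region. The class IV gene HDAC11, whose product removes fatty acyl groups such as myristoyl from lysine, had a start region (chr3:13479055-13481015) with a mean level of 48.7 and a fold change of 0.44 (SE 0.30) in the authors' deposited table. Both lay within their SE of the median of all starts. The start regions of HDAC2, HDAC4 and HDAC11 also hold a RefSeq start of an antisense transcript, and ChIP carries no strand, so the 2 transcripts cannot be told apart there.

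Class I and class II did not separate at distance 0. The median log2 fold change of the 4 class I starts was 0.36 and that of the 5 class II starts 0.37 in the authors' deposited table. Means weighted by the inverse squared SE were 0.34 (SE 0.13) for class I and 0.38 (SE 0.11) for class II, computed from the authors' deposited table. Class I minus class II was -0.04, with a 95% interval from -0.38 to 0.30 when errors of different regions are taken as independent. These SEs combine the deposited SEs only and hold no spread between genes, so the interval is no test of the classes. It is wide and does not show that the classes act alike. Leaving out 1 gene at a time moved the class I median between 0.27 and 0.46 in the authors' deposited table, so the sign of the small difference depended on which gene was left out.

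Differences between single starts were also within their errors. The widest gap among the 45 pairs was HDAC2 minus HDAC9, at -0.44 with a combined SE of 0.36, computed from the authors' deposited table. Of the 45 pairs, 43 differed by no more than 1 combined SE and 0 by more than 1.96. The combined SE takes errors of different regions as independent, though all regions come from the same libraries. The 45 pairs also rest on only 10 values, so these counts are a description and no test. Given the SEs in the authors' deposited table, a start region would have needed a log2 fold change of 0.76 (HDAC7) to 1.11 (HDAC8) to be called, taking the smallest statistic of any called region, 3.34. None of the 10 reached its value.

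H3K27ac mean levels at the 10 starts ran from 48.1 to 257 in the authors' deposited table, or from percentile 23.9 to 94.6 of all starts, with HDAC7 at the top. The HDAC7 start is 7067 bases wide, and the percentiles are over the 10642 start regions of the authors' deposited table. Per kb of width its mean level of 36.4 was still the highest of the 10 and stood at percentile 90.0. HDAC1 followed with 33.9 per kb (percentile 84.6), then HDAC5 with 29.7 and HDAC3 with 27.8 in the authors' deposited table. HDAC8, HDAC11, HDAC2, HDAC9 and HDAC6 lay between 25.3 and 22.8 per kb. HDAC4 was lowest with 18.3 per kb (percentile 16.7). The median mean level was 95 for class I and 81.0 for class II in the authors' deposited table, a ratio of 0.853 that rose above 1 when either HDAC4 or HDAC6 was left out (1.05 in both cases). No error can be attached to these levels, so the order of neighbours is a description.

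**Figure D2:**
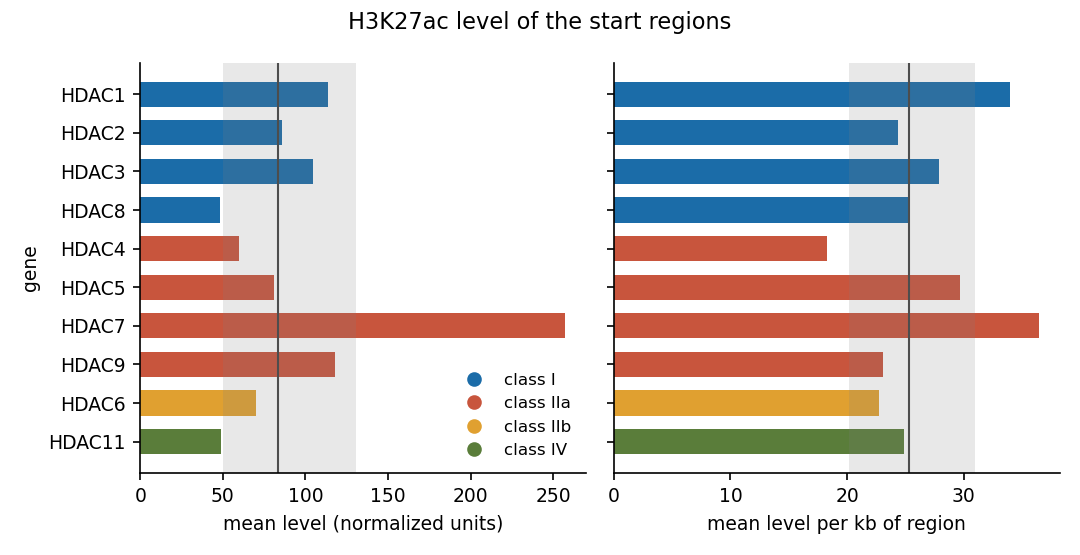
Mean level of each start region in the authors' deposited table, as deposited on the left and per kb of region width on the right; the dark line and grey band are the median and quartiles of all start regions. HDAC7 reaches 257, past the band in both panels, and HDAC4 lies below the band per kb at 18.3.

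Away from the starts the genes differed mostly in how many regions they had. The 64 regions elsewhere comprised 11 beside class I genes, 48 beside class II genes and 5 beside HDAC11. HDAC9 had 21 of them and HDAC4 had 12, and these 2 genes are also the longest, at 916 and 353 kb in RefSeq. HDAC3, at 16.0 kb, had 1. Of the 64 regions, 51 overlapped the RefSeq extent of their gene and 13 did not. Distances had a median of 29.0 kb for class I and 84.4 kb for class II in the authors' deposited table, where all regions elsewhere had 50.0 kb. Whether a region lies in an exon or an intron was not analysed here.

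**Figure D3:**
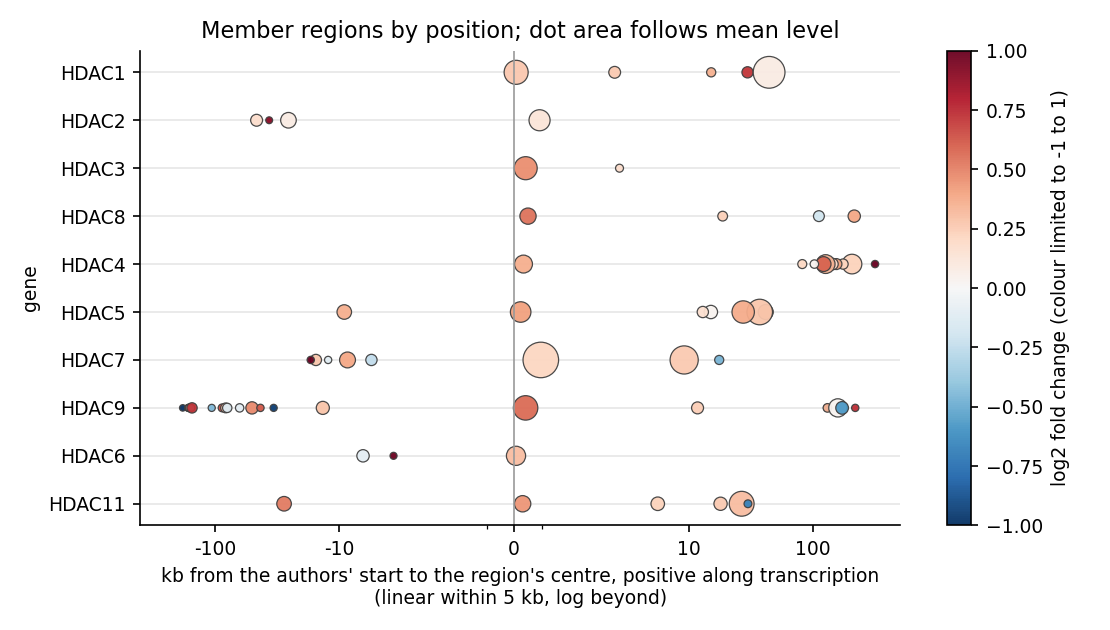
All 74 member regions by gene, with distance in kb from the authors' start to the centre of the region along transcription (linear within 5 kb, log beyond); dot area follows mean level and colour gives the deposited log2 fold change. HDAC4 has all 12 of its other regions downstream of its start, HDAC2 has all 3 upstream, and red shades predominate.

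Fold changes elsewhere were lower in the median and more scattered than at starts. Of the 64 regions, 49 were positive and 15 negative in the authors' deposited table, or 76.6% positive beside 70.5% of all regions elsewhere. The median log2 fold change was 0.24 for class I and 0.26 for class II in the authors' deposited table, and 0.25 for all regions elsewhere. The weighted means were 0.21 (SE 0.12) and 0.23 (SE 0.06). Class I minus class II was -0.02 with a 95% interval from -0.28 to 0.24, with the same assumption and limit as above. The 48 class II regions include 21 of HDAC9 and 12 of HDAC4, and regions of 1 gene are not replicates of a class. Of the 13 negative class II regions of the authors' deposited table, 10 had no adjusted p, which the authors' deposited table gives for mean levels above 18.4 and for none below. Where an adjusted p was computed, the 30 member regions elsewhere had a median of 0.26, with 27 positive, while all 26440 such regions of the authors' deposited table had 0.31. Of those 30 regions, 0 were called, where the background was 1.97%, and 0 had an unadjusted p-value under 0.05, where it was 18.1%.

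Beside class I genes, the region of highest mean level lay at the far end of HDAC1. This region (chr1:32332326-32340051, 40.2 kb from the HDAC1 start) had a mean level of 204 and a log2 fold change of 0.08 (SE 0.24) in the authors' deposited table. It is listed at distance 0 for MARCKSL1 as well, and it covers both the promoter of that neighbour and the end of HDAC1. Per kb it had 26.4, below the 33.9 of the HDAC1 start, in the authors' deposited table. Without it, and without the shared HDAC3 start, the class I medians were 0.25 elsewhere and 0.27 at starts in the authors' deposited table. A region inside HDAC1, 29.0 kb from the start, had the highest fold change of class I once mean levels under 10 are set aside, 0.72 (SE 0.39, adjusted p = 0.303), at a mean level of 19.2 in the authors' deposited table. HDAC2 had no region within its body apart from its start, and its 3 others lay upstream of the gene. The strongest of these, 23.8 kb away, had a mean level of 43.6 and a fold change of 0.08 (SE 0.32) in the authors' deposited table. HDAC8 had 3 regions inside its 243 kb, the farthest at 213 kb, with a mean level of 24.5 and a fold change of 0.39 (SE 0.36) in the authors' deposited table. Its negative region at 110 kb had -0.19 (SE 0.42). The single other region of HDAC3, at 3.66 kb, had a mean level of 5.95.

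HDAC5 and HDAC7 carried strong H3K27ac within their bodies. In HDAC5 the region 34.9 kb from the start had a mean level of 130, above the 81.0 of the start itself, and a log2 fold change of 0.27 (SE 0.23) in the authors' deposited table. Per kb these 2 were close, at 30.7 and 29.7. The region 25.8 kb from the start, chosen after its values were seen, had a mean level of 97.6 and the highest level per kb of the gene, 34.4. The remaining HDAC5 regions lay below the start in both measures. The start held 18.6% of the summed level of the 7 HDAC5 regions, which covered 16.5 kb at a mean of 26.3 per kb in the authors' deposited table. All 7 HDAC5 fold changes were positive, from 0.02 to 0.41 in the authors' deposited table. In HDAC7 a region 5.82 kb from the start (chosen after its values were seen) had a mean level of 159 and a fold change of 0.26 (SE 0.24) in the authors' deposited table. Of the 8 HDAC7 regions, 3 were negative, the most so at 17.1 kb with -0.47 (SE 0.55) and a mean level of 10.1 in the authors' deposited table. HDAC6 had 2 further regions, both upstream of the gene, and the one with the higher level had a fold change of -0.10 (SE 0.39) at a mean level of 24.7 in the authors' deposited table.

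HDAC4 had 13 regions and all 13 were positive, from 0.04 to 1.04 in the authors' deposited table. Its start was not its strongest region, by mean level or per kb. A region 204 kb into the gene (chr2:239193521-239197185), which also holds a RefSeq start of the antisense transcript HDAC4-AS2, had a mean level of 73.7 and a log2 fold change of 0.23 (SE 0.29) in the authors' deposited table. A region at 124 kb (chr2:239273343-239276509), chosen after its position was seen, holds 2 RefSeq starts of HDAC4 itself and had a mean level of 66.7 and a fold change of 0.34 (SE 0.27) in the authors' deposited table. The gene start had 60.0 and 0.37, close in both measures. Regions at 133 kb and 102 kb, chosen in the same way, each hold 1 further HDAC4 start and had mean levels of 15.1 and 7.67 in the authors' deposited table. The highest HDAC4 fold change, 1.04, came from the farthest region, 315 kb away, with an SE of 0.87 and a mean level of 3.89 in the authors' deposited table. With mean levels under 10 set aside, the highest was 0.68 (SE 0.57) at 135 kb, at a mean level of 10.3. The lowest was then 0.18 (SE 0.40) at 142 kb, at a mean level of 21.2.

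HDAC9 held both ends of the range among regions of appreciable level. Of its 22 regions, 13 were positive and 9 negative, and 16 were without a computed adjusted p in the authors' deposited table. The region with the lowest fold change of all members, -1.71 (SE 1.47), had a mean level of 1.54, and it is named here after its values were seen. With mean levels under 10 set aside, the lowest was at 170 kb (chr7:18679023-18681798), with a log2 fold change of -0.57 (SE 0.38, adjusted p = 0.372) and a mean level of 26.3 in the authors' deposited table. Its 95% interval ended at 0.17, below the median of 0.32 over all genes' regions for which an adjusted p was computed, which the intervals of the other 73 member regions covered. The highest was at 153 kb on the other side, with 0.72 (SE 0.45) and a mean level of 15.1 in the authors' deposited table. The HDAC9 region of highest mean level away from the start, at 156 kb downstream and chosen after its values were seen, had a mean level of 62.3 and a fold change of 0.02 (SE 0.25) in the authors' deposited table. The region at 12.8 kb upstream, chosen after its position was seen, holds 3 RefSeq starts of HDAC9 and had a mean level of 28.6 and a fold change of 0.28 (SE 0.36) in the authors' deposited table. The start used in the table had 118 over a region of 5121 bases, while this one is 1455 bases wide. Per kb the mean levels were 23.0 and 19.7 in the authors' deposited table, much closer than the totals.

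**Figure D4:**
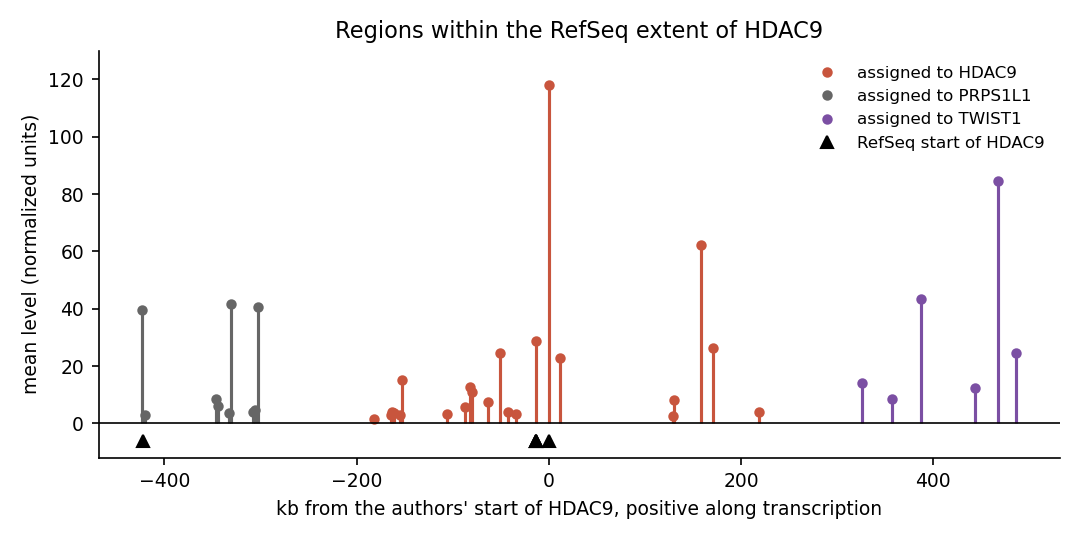
Mean level in the authors' deposited table of the 37 regions within the RefSeq extent of HDAC9, by distance in kb from the authors' start along transcription; colours give the gene to which each region is assigned and triangles the RefSeq starts of HDAC9. The tallest region, 118, is at the start used in the table, and the most distal start lies in a region assigned to PRPS1L1.

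The assignment to a single start left part of HDAC9 under other names. Of the 37 regions within its RefSeq extent, 22 were assigned to HDAC9, 9 to PRPS1L1 and 6 to TWIST1 in the authors' deposited table. The most distal HDAC9 start, 422488 bases from the one the authors used, lay in a region assigned to PRPS1L1 (chr7:18085632-18087307). This region, the CpG-rich promoter printed above, had a mean level of 39.4 and a log2 fold change of 0.41 (SE 0.31, adjusted p = 0.433) in the authors' deposited table. The 9 regions under PRPS1L1 had a median fold change of 0.41 and the 6 under TWIST1 one of -0.27 in the authors' deposited table, with 0 called in either. An adjusted p was computed for 3 regions under each name, too few to set against the background of 18.1% at an unadjusted p-value under 0.05, which 2 under PRPS1L1 and 0 under TWIST1 reached.

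HDAC11 had its highest mean level not at its start but in a region that runs across the RefSeq end of the gene. That region, 23.9 kb from the start (chr3:13503668-13508780), had a mean level of 122 and a log2 fold change of 0.31 (SE 0.23) in the authors' deposited table, while the start had 48.7. The 2 regions are 5112 and 1960 bases wide, and per kb the order turned, with 23.9 at the gene's end and 24.8 at the start. The highest fold change was upstream of the gene, at 26.8 kb, with 0.52 (SE 0.34) and a mean level of 37.3 in the authors' deposited table. The farthest, at 29.6 kb, had -0.67 (SE 0.70) at a mean level of 5.45.

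Scatter among members was widest at low mean level. The 40 member regions for which an adjusted p was computed had 37 positive fold changes in the authors' deposited table, or 92.5% beside 87.3% of all such regions. The 34 without one had 22 positive, or 64.7%, with a median SE of 0.70 in the authors' deposited table. The 3 fold changes below -0.60 belonged to regions with a mean level under 10. Over all genes' regions with a computed adjusted p the median fold change was 0.32. Of the 40 member regions with one, 16 lay above that median and 24 below it.

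**Figure D5:**
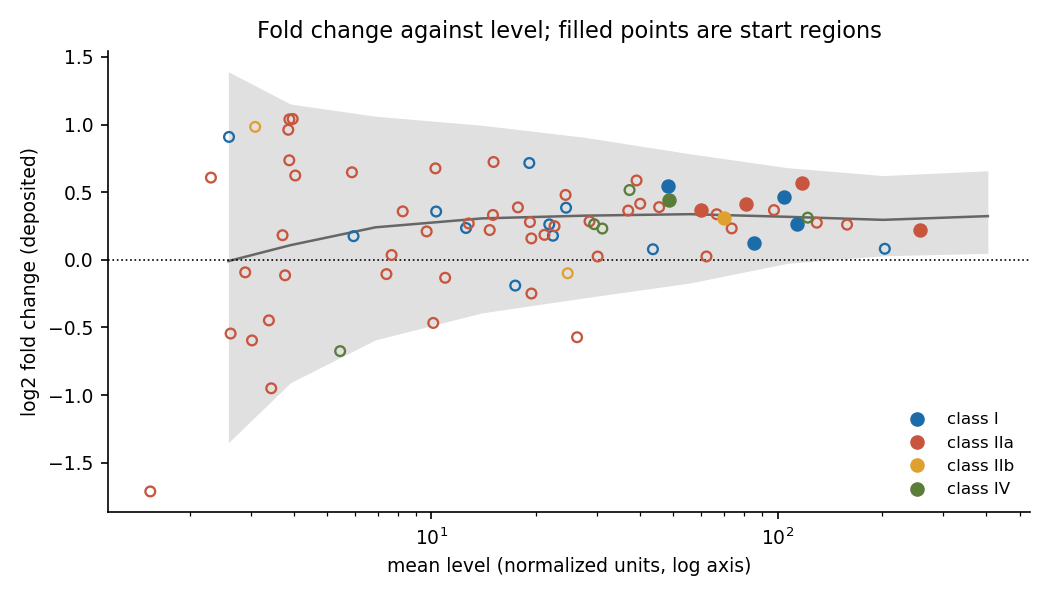
Deposited log2 fold change against mean level (log axis) for the 74 member regions, with filled points for start regions; the grey line and band are the median and the 5th to 95th percentile of all regions by level. The 10 start regions sit within the band between 0.13 and 0.57, and the widest scatter is among open points at mean levels under 10.

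The partners of these enzymes were examined from 2 lists drawn up by function, with earlier results of these data known. Of 40 genes of the class I corepressor complexes, 33 had a region at distance 0, and all 33 were positive with a median log2 fold change of 0.29 in the authors' deposited table. Of these 33, 0 were called and 4 (12.1%) had an unadjusted p-value under 0.05, where the background at starts was 0.86% and 19.2%. Elsewhere they had 249 regions with a median of 0.26 in the authors' deposited table. An adjusted p was computed for 88 of them. Of the 88, 2 (2.27%) were called, both positive, and 16 (18.2%) had an unadjusted p-value under 0.05, close to the background of 1.97% and 18.1%. The region beside SIN3B, a scaffold that brings HDAC1 and HDAC2 to DNA-binding repressors, had 1.26 (SE 0.27, adjusted p = 0.00277) at 19.1 kb in the authors' deposited table (chr19:16848496-16850858). With the median of 0.32 subtracted, it did not pass, at an adjusted p of 0.162 computed from the authors' deposited table, where 0.124% of regions passed, and adjustment over all distinct regions gave 0.00692.

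Among 25 partners of class IIa enzymes, which are MEF2 factors, 14-3-3 proteins and the kinases that phosphorylate these HDACs, 17 had a region at distance 0. All 17 were positive, with a median log2 fold change of 0.39 in the authors' deposited table. An adjusted p was computed for 16 of them. Of the 16, 0 were called, beside 0.86% of all starts, and 6 (37.5%) had an unadjusted p-value under 0.05, beside 19.2%. Whether that share differs from the background was not tested. Their 262 regions elsewhere had a median of 0.26 in the authors' deposited table. Of the 81 with a computed adjusted p, 0 were called and 14 (17.3%) had an unadjusted p-value under 0.05, beside 18.1% of all such regions. Over all genes the medians were 0.36 at starts and 0.25 elsewhere in the authors' deposited table, so the class I partners lay slightly below at starts and the class IIa partners slightly above.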

How the data were processed

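H3K27ac was profiled in A375 cells, with 2 vehicle and 2 octanoate libraries grouped by the labels. The submitters' processing notes name Trim Galore, cutadapt, FastQC, Bowtie2, Picard, MACS2, featureCounts, DESeq2 and bedtools 2.29.1 and the build hg38, without roles. Whether peaks were called per library or on pooled libraries is not given in the sources used here. The deposited mean level is a signal normalized by the authors. The log2 fold change and its SE were deposited as the authors computed them. The deposited score is their quotient, which held for every line. Each deposited p-value has an adjusted one beside it, and an adjusted value of 1 was read as not computed, because Benjamini-Hochberg adjustment over the other 36436 regions gave the deposited values back. Every region above a mean level of 18.4 had one and every region up to it had none. Depth per library is unknown.

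Python 3.11.15, pandas 2.3.3, NumPy 2.4.6 and SciPy 1.17.1 were used. The 95312 lines were merged into 91107 regions. No test across libraries could be run. Classes were described by counts, medians and weighted means. Centring subtracted the median fold change of those 36436 regions, kept the authors' SE and adjusted again. These steps were tested on simulated data. RefSeq sequences and gene extents are of GRCh38.p14. A region holds a start if the first transcribed base lies in it.

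The members and lists were chosen with earlier results of these data known. Named regions were each gene's start, any with an unadjusted p-value under 0.05, its strongest, its farthest, and its highest and lowest fold change (mean level 10 or more), plus called regions of the partner lists, of which 1 is not reported here. Others are marked in the text.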

Additional observations from a re-analysis of the deposited data

How the results depend on the processing

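Counts of called member regions were 0 at an adjusted p-value under 0.01, after adjustment over all distinct regions, after centring, by table line and with HDAC10. The count was 1 at an unadjusted p-value under 0.05. Over all genes' regions with a computed adjusted p, the shares were 1.67% as deposited, 0.124% after centring and 18.4% at an unadjusted p-value under 0.05. Shares at the stricter threshold and the wider adjustment are not given here. Counts of 0 beside such low shares say nothing particular about the members. The share of positive member regions was 79.7% with no filter, 88.2% at a mean level of at least 10 and 100% at 100. It was 92.5% where an adjusted p was computed. After centring on the median of all genes' regions with a computed adjusted p, it was 41.9%. Shares of all regions were 73.7% with no filter and 84.1%, 95.3% and 87.3% under the 3 filters. The fall on centring follows from subtracting a shift common to most regions. With no filter all regions had a median fold change of 0.28, below the 0.32 subtracted, so most of them were negative after centring as well. Class medians and their differences moved by less than their pooled SE in every setting tried, at starts and elsewhere. The setting with HDAC10 and that of regions listed with 1 gene only were chosen after seeing the data. The ratio of class II to class I mean level at starts ran from 0.777 to 1.05 over the leave-one-out settings, and the values above 1 came without HDAC4 or HDAC6. Of 34 named regions, 14 changed sign on centring and 20 did not, with 0 called. At starts the centred log2 values that changed sign were -0.056 for HDAC1, -0.20 for HDAC2, -0.018 for HDAC6 and -0.11 for HDAC7. Elsewhere they were -0.24 at HDAC1, -0.25 and -0.15 at HDAC2, -0.15 at HDAC3, -0.091 and -0.14 at HDAC4, -0.049 and -0.30 at HDAC5 and -0.092 and -0.012 at HDAC11. No paired analysis was possible because levels of single libraries are not in the table used, and leaving out a library was not possible either. Small fold changes of the kind seen at these starts are below what the deposited SEs allow to be called.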

Other observations

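HDAC10, the other class IIb gene, lies outside the 10 members and had 2 regions in the authors' deposited table. Its start region (chr22:50250129-50251517) had a mean level of 36.7 and a log2 fold change of 0.06 (SE 0.33), and a region at 5089 bases had a mean level of 88.2 and 0.45 (SE 0.28), in the authors' deposited table. Both the level and the fold change of this start lie below those of all 10 member starts. With HDAC10 included, the class II median at starts was 0.34 in the authors' deposited table. Of the family's regions 0 were called, where the background was 1.67%.

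Regions elsewhere that hold a RefSeq start of their own gene made up 4 of the 64 member regions (6.25%) and 1338 of the 80465 of all genes (1.66%), as positions and not as a result of the comparison. All 4 belonged to HDAC4 or HDAC9. Over all genes in the authors' deposited table such regions had a median mean level of 52.7, beside 9.71 for the other regions elsewhere, and a median log2 fold change of 0.38 beside 0.25.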
